A study of Mus musculus with 7 samples.

Results

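The genes described here are those that were almost without reads in megakaryocyte progenitors of young mice and clearly present in those of old mice. They were chosen from the authors' deposited table of old against young progenitors as the gene models with a mean normalized count under 10 in young and of at least 20 in old. Of 18 symbols left out by name, 12 met both limits. The remaining 84 genes make up 10.9% of the 769 gene models in the table. Since the choice used both means, the size and direction of their change are a description and are not tested.

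Total RNA was sequenced from bone marrow cells sorted as lacking lineage markers and Sca1 while carrying cKit, CD150 and CD41. The young group held 3 libraries from mice aged 3 months, and the old group held 4 libraries from mice aged 18 to 20 months. All mice were offspring of a cross of Flt3-Cre with the mTmG reporter, in which cells turn from Tomato to GFP fluorescence once they or an ancestor expressed the recombinase, and Tom+ or GFP+ cells were sorted. The strain is labelled C57BL/6 for 6 libraries and C57BL/7 for 1 old library. The young titles begin with 1 prefix and the old titles with 2 others, none of them explained in the labels, so age and whatever the prefixes mark cannot be told apart. No label names the individual mice, so the spread behind each standard error may be technical.

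Megakaryocyte progenitors are bone marrow cells committed to forming megakaryocytes, the large cells that shed platelets. Stem and progenitor cells carry low levels of transcripts of several blood lineages, and commitment turns most of these off. Neutrophils and monocytes arise from a separate branch of the myeloid tree under the cytokines G-CSF and M-CSF, and their mature cells are recognised by paired activating and inhibitory receptors, Src-family kinases and granule or lysosomal enzymes.

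Among the sort antigens, Slamf1 (CD150) stood at 79.3 in young and 228 in old by the authors' deposited table. Ly6a, which encodes the Sca1 antigen that the sort selects against, stood there at 23.5 and 98.8. The platelet adhesion receptor Selp, a megakaryocyte gene, stood there at 496 and 2358. In a compiled list of 45 megakaryocyte and platelet genes, 2 were listed as higher in old and 1 as lower. The other genes of that list have no value here, so Selp alone does not describe the lineage. Kit and Itga2b (CD41) are not among the listed gene models and have no value here.

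Myeloid genes formed the most numerous lineage among the 84 by count, in lists of unlike size. In 27 compiled lists of cell types and programs, 18 genes stood in the neutrophil, monocyte and macrophage or eosinophil lists. Another 5 stood in the lists of stem cell and aged stem cell genes, 12 stood in other lists alone, and 49 stood in none. The myeloid lists, with those of dendritic cells and of mast cells and basophils, hold 254 genes. The stem cell lists hold 132, so these counts do not weigh the lineages against each other. No gene stood in the lists for megakaryocytes and platelets, erythroid cells, B and plasma cells, dendritic cells, mast cells and basophils, endothelium, stroma, epithelium or MHC class II. The choice bears on these zeros too: the symbols left out by name although they met both limits include the mast cell and basophil gene Fcer1a, the matrix gene Col18a1, the neutrophil genes Retnlg, Mmp8 and Mmp9, and Ly6c1, which stands in the monocyte and endothelium lists. Genes that missed either limit are not counted either. Of 11 MHC class II genes, 4 were listed as higher in old, Cd74 among them. Their means by the authors' deposited table summed to 496 in young and 10905 in old, a direction fixed by the listing. Of the lists with these zeros, only that of dendritic cells had no gene listed as higher. The lists were compiled with earlier results of these data known, so the counts are not independent evidence of a lineage.

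By the authors' deposited table the old means of the 84 genes lay between 20.3 and 272, their median being 39.4, and the young means lay between 0 and 9.77, their median being 4.49. These normalized counts are read as not scaled by transcript length, so they are not used to rank the genes by transcript number. The log2 fold changes of old over young by the authors' deposited table lay between 1.49 and 7.20, their median being 3.33, beside a median of 2.13 over all 432 gene models listed there as higher in old. By the authors' deposited adjusted p, 62 of the 84 were under 0.05, where 2.56% of the 11778 gene models in the authors' adjustment were higher in old at that limit, and 30 were under 0.01, beside 1.18%. All gene models in the table are under 0.1, and 302 of the 432 listed as higher in old were under 0.05. That limit and both limits of the choice bear on the counts of the 84, so nothing is read from them. In bulk samples, more cells of a type and more RNA per cell cannot be told apart.

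**Figure D1:**
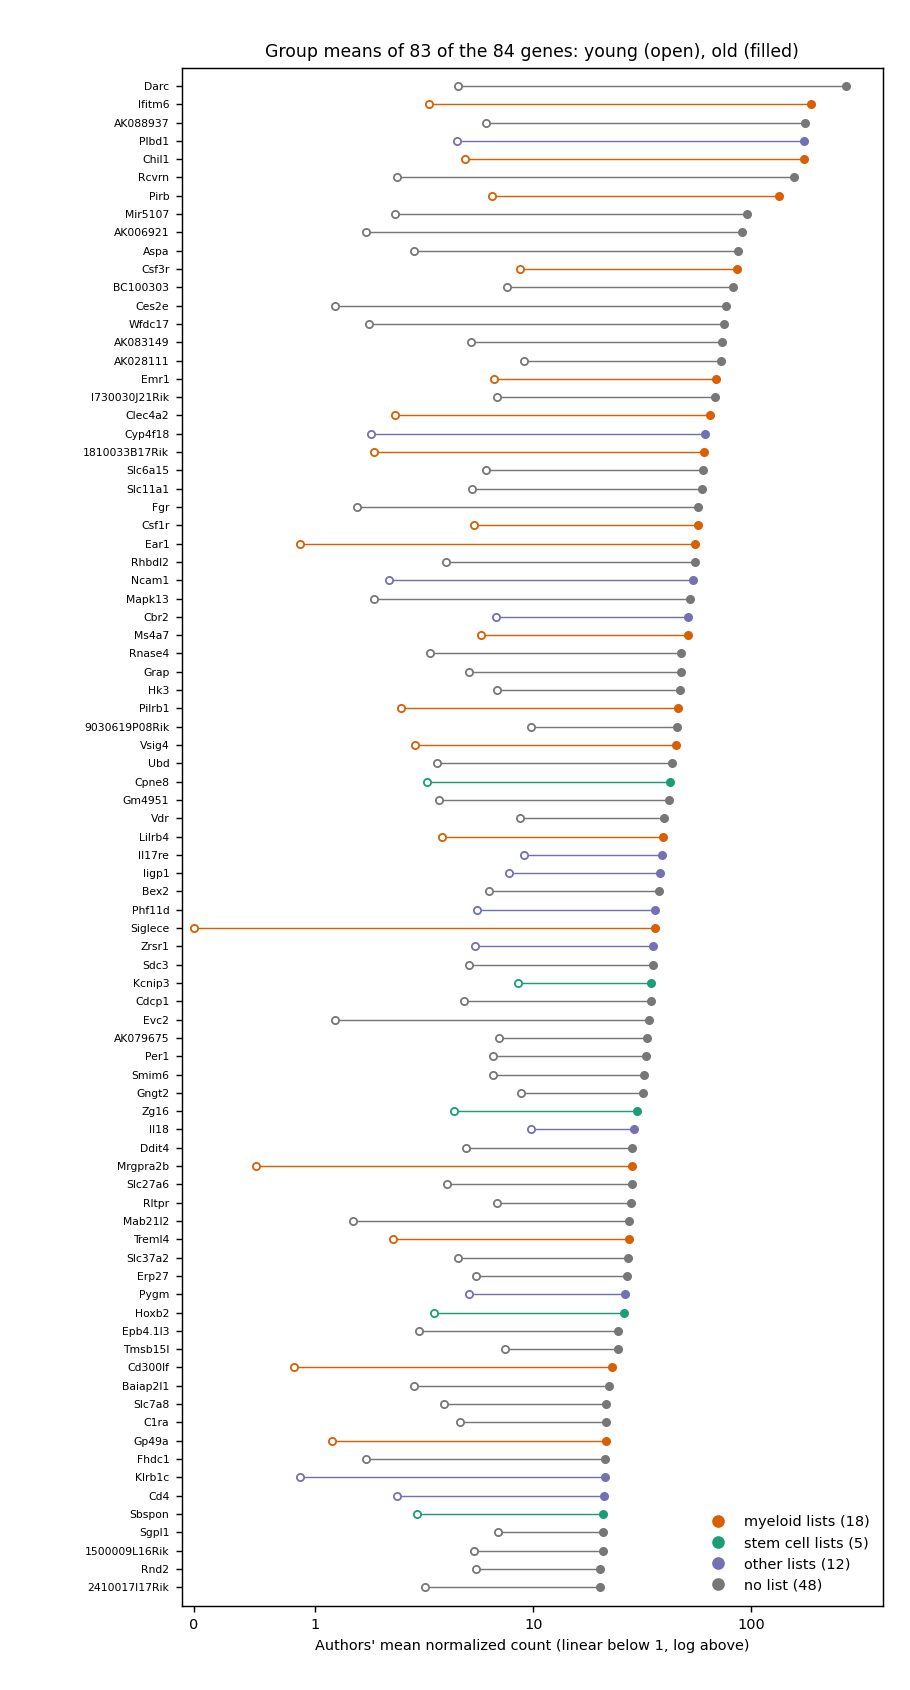
Mean normalized count of 83 of the 84 genes in young (open circles) and old (filled circles), on an axis that is linear below 1 and logarithmic above, from the authors' deposited table, with colours for the list class. Open circles lie between 0 and 9.77 and filled circles between 20.3 and 272, and the 7 genes with an old mean of at least 100 head the plot.

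Close to the limits of the choice, the authors' deposited table gave young means of 9.77 for 9030619P08Rik, 9.75 for Il18 and 9.07 for Il17re just inside, and of 10.1 for Tmem121, 10.3 for Id2 and 10.6 for Rtkn just outside. Old means by the authors' deposited table were 20.3 for 2410017I17Rik, 20.3 for Rnd2 and 20.8 for 1500009L16Rik just inside, and 19.8 for Chil4, 19.5 for Evc and 19.1 for Apobr just outside. The limits therefore cut through a continuous range of values.

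The young values could be traced back to whole reads. Each of the 128 gene models with a young mean under 10 was a sum of whole reads from 3 libraries in exactly 1 way, to within 2e-06, with 1 read worth 0.362, 0.466 or 0.512 of the mean. The libraries are called here the young libraries of greatest, middle and least depth, since these values do not tie them to a replicate number. Their relative depths differed by 1.41 times between greatest and least. None of the 10 old means above 0 and under 10 was made of the same 3 values, and reads per old library were not recovered.

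In all, 862 reads in the 3 young libraries lay behind the 84 genes: 358, 269 and 235 in order of depth. After scaling by depth the summed level of the 84 genes was 389, 376 and 361 in the 3 libraries. The choice used the young means that these levels divide, so they are a description only. A read was seen in all 3 young libraries for 65 genes, in 2 for 16, in 1 for 2 and in none for Siglece. The median gene had 10 young reads in total, and 9 genes had at most 3. These counts and the Poisson intervals below cover counting error of the young reads only.

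**Figure D2:**
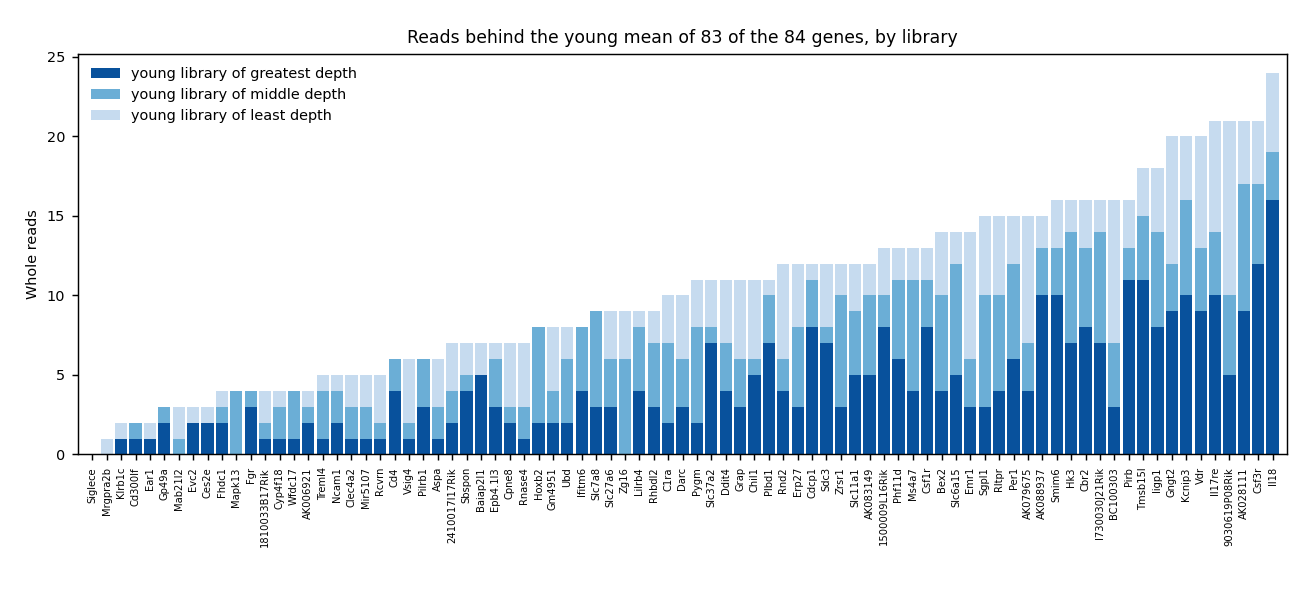
Whole reads behind the young mean of 83 of the 84 genes, stacked by young library (dark, middle and light blue for greatest, middle and least depth), with genes in order of their total. Totals run from 0 reads for Siglece to 24 for Il18, and most bars hold all 3 shades.

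Receptors for the growth factors of granulocytes and macrophages were in the group. Csf3r, the G-CSF receptor that drives neutrophil production, had 12, 5 and 4 reads in the young libraries in order of depth, a young mean of 8.72. Its old mean by the authors' deposited table was 85.8, with a log2 fold change of 3.28 (SE 0.58). Csf1r, the M-CSF receptor of monocytes and macrophages, had 8, 3 and 2 young reads, and the authors' deposited table gave an old mean of 56.8 and a log2 fold change of 3.37 (SE 0.71). Both receptors thus had reads in every young library and SEs below the median of the 84 genes. Il17re, a receptor subunit for an epithelial member of the interleukin 17 family, had 10, 4 and 7 young reads and a smaller log2 fold change of 2.13 (SE 0.61) by the authors' deposited table.

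Kinases and adaptors that act below immune receptors were also present, outside the lists. Fgr, a Src-family kinase of neutrophils and macrophages, had 3, 1 and 0 young reads, and the authors' deposited table gave an old mean of 57.0 and a log2 fold change of 5.09 (SE 1.08). Grap, an adaptor of the Grb2 family, had 3, 3 and 5 young reads and an old mean of 47.5 by the authors' deposited table. Mapk13, a p38 kinase, had all of its 4 young reads in the library of middle depth. Its log2 fold change of 4.82 by the authors' deposited table carried an SE of 1.69 and an adjusted p of 0.0799.

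Paired immune receptors, which set the threshold of myeloid cell activation through inhibitory or activating tails, were the next set. Pirb, an inhibitory receptor that binds MHC class I, had 11, 2 and 3 young reads, and its old mean of 134 was the highest of these receptors by the authors' deposited table (log2 fold change 4.36, SE 1.34). Lilrb4 (now Lilrb4a) and Gp49a (now Lilr4b), which lie next to each other on chromosome 10, had 9 and 3 young reads, and the authors' deposited table gave old means of 39.2 and 21.4. Both share exon bases with the same other annotated gene, so reads could be split between them. Cd300lf, an inhibitory receptor for lipids, had 2 young reads and an old mean of 22.9 by the authors' deposited table, a ratio of 26.2 to the pooled young reads with a counting interval of 7.26 to 217. Pilrb1, an activating paired receptor, had 3, 3 and 0 young reads and an old mean of 46.2 by the authors' deposited table (log2 fold change 4.18, SE 1.04).

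Siglece, an inhibitory receptor for sialic acids on neutrophils and macrophages, was the 1 gene with no young read. A count of 0 over the 3 libraries allows a level of up to 1.31. The old mean of 36.0 by the authors' deposited table was 27.4 times that level. The counting interval used for the other genes reaches 1.61 at a count of 0, and the old mean was 22.3 times that. The log2 fold change of 7.20 (SE 1.93) given by the authors' deposited table depends on the authors' fit and is not a bound. Mrgpra2b, a peptide receptor found in neutrophils, had 1 young read and an old mean of 28.3 by the authors' deposited table, a ratio of 64.8 to the pooled young reads with a counting interval of 11.6 to 2558.

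Receptors and membrane proteins of macrophages and monocytes followed. Emr1 (now Adgre1), which encodes the macrophage antigen F4/80, had 3, 3 and 8 young reads and an old mean of 69.1 by the authors' deposited table (log2 fold change 3.41, SE 1.12, adjusted p 0.0551). Clec4a2, a C-type lectin of monocytes, had 1, 2 and 2 young reads and an old mean of 64.8 by the authors' deposited table, with an SE of 1.64 and an adjusted p of 0.0673. Vsig4, a complement receptor of resident tissue macrophages, had 1, 1 and 4 young reads and an old mean of 44.9 by the authors' deposited table (adjusted p 0.0647). Ms4a7 and Treml4, a macrophage membrane protein and a receptor of a subset of monocytes, dendritic cells and macrophages, had 13 and 5 young reads and old means of 51.1 and 27.4 by the authors' deposited table, with adjusted p of 0.00992 and 0.0157.

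As a set, the 18 myeloid genes had a median log2 fold change of 4.27 by the authors' deposited table, which stays at that value with Siglece set to its bound. By its adjusted p, 12 of the 18 (66.7%) were under 0.05, beside 73.8% of the 84 and 2.56% of all gene models in the authors' adjustment. All models listed there are under 0.1, and 302 of the 432 listed as higher in old were under 0.05, so nothing is read from the 12. Each whole list held more genes than its members among the 18, and 3.67% of all gene models in the authors' adjustment were listed as higher in old. Of 76 neutrophil genes, 10 of which are among the 84, 32 were listed as higher in old and none as lower, and the means of those 32 by the authors' deposited table summed to 3358 in young and 96248 in old. Of 95 monocyte and macrophage genes, 7 of which are among the 84, 21 were listed as higher and none as lower, and the means of those 21 by the authors' deposited table summed to 10008 and 34157. For the eosinophil list the count was 4 of 19, and the means of those 4 by the authors' deposited table summed to 27.6 and 1409. The sums hold listed genes alone, so their direction is fixed by the listing, and the other genes of each list have no value here. The part of such cells in the change of the 18 genes was not tested.

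Promoter sequence was not used in the choice. The 4 promoters below are shown because they belong to myeloid genes of the group and run from 3 purine-rich boxes to none. They are the 250 bases before the RefSeq start on GRCm38.p6, 5′ to 3′ on the gene's strand, with the box GAGGAA, or TTCCTC where it lies on the other strand, in capitals. This box is the core bound by PU.1 and other ETS factors, which direct myeloid genes.
Siglece, chr7:43660162-43660411, minus strand: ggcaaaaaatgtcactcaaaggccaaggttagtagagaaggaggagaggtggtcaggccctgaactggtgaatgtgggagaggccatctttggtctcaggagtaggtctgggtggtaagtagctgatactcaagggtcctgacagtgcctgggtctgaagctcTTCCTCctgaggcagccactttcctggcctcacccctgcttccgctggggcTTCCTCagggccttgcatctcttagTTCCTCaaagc
Pirb, chr7:3720383-3720632, minus strand: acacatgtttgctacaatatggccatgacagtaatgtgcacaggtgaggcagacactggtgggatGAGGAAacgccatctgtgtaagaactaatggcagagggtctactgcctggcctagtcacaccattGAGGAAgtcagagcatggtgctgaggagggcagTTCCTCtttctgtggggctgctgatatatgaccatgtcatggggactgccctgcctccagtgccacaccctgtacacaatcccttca
Csf3r, chr4:126024409-126024658, plus strand: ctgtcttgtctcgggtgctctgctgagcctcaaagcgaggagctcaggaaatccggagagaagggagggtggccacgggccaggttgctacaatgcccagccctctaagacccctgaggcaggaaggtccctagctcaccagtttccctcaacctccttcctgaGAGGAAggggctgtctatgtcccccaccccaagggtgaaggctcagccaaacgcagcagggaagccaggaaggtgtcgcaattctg
Chil1, chr1:134181906-134182155, plus strand: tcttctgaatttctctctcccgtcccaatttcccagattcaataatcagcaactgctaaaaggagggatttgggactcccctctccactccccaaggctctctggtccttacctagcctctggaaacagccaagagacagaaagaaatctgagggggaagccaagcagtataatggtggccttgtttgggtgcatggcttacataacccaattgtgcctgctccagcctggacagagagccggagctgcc
Siglece and Pirb carry 3 boxes each, Csf3r 1 and Chil1 none. The windows of Siglece and Csf3r lie inside the longer RefSeq spans of these genes.

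Over the 300-base windows of RefSeq, from 250 bases before to 50 after the start, the box was present on either strand in 29 of 66 promoters of 57 genes of the group, or 43.9%, beside 28.3% of 32851 promoters in the table. Promoters of chromosome 18, which holds 5 of the 84 genes, were not used, for the group or for the comparison. It was in 8 of 16 promoters of the myeloid lists and in 21 of 50 of the other genes (42%). Few of these promoters were rich in CpG: the observed over expected CpG ratio was below 0.6 in 77.3% of the group's promoters and in 16 of 16 from the myeloid lists, beside 64.2% of all promoters used. The motif TTGCNNAA of C/EBP factors was in 10.6% of the group's promoters and 10.8% of all, and AGATAA of GATA factors in 9.09% and 11.2%. A match gives letters in a window and does not show binding.

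Ifitm6, Chil1 and Plbd1, genes for a membrane protein and for granule proteins of myeloid cells, were 3 of the 7 genes with an old mean of at least 100. Ifitm6, a myeloid member of the interferon-induced transmembrane family, had 4, 4 and 0 young reads and an old mean of 187 by the authors' deposited table (log2 fold change 5.81, SE 2.07, adjusted p 0.0847). Chil1, a chitinase-like protein of neutrophil granules and macrophages, had 5, 1 and 5 young reads and an old mean of 174 by the authors' deposited table (log2 fold change 5.17, SE 1.66, adjusted p 0.0471). Plbd1, a phospholipase B-like protein of granulocyte granules, had 7, 3 and 1 young reads and an old mean of 175 by the authors' deposited table (log2 fold change 5.27, SE 1.26). Among these 3 genes Plbd1 had the smallest SE. The young reads of all 3 were few in every library, 7 at most.

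Further genes for enzymes, transporters, secreted proteins or membrane proteins of myeloid cells had lower old means. Slc11a1, the phagosome metal transporter, had 5, 4 and 3 young reads and an old mean of 59.5 by the authors' deposited table (log2 fold change 3.51, SE 0.73). Wfdc17, a secreted whey-acidic-protein domain protein of activated macrophages, had 4 young reads and an old mean of 75.3 by the authors' deposited table (log2 fold change 5.41, SE 1.01). Cyp4f18, which inactivates leukotriene B4 in neutrophils, and Hk3, the hexokinase of myeloid cells, had adjusted p of 0.0567 and 0.0673 by the authors' deposited table, with old means of 61.2 and 47.0. The mast cell and myeloid membrane gene 1810033B17Rik (now Mcemp1) had 4 young reads and an old mean of 60.5 by the authors' deposited table (adjusted p 0.0443). Ear1, an eosinophil ribonuclease, had 2 young reads and an old mean of 55.2 by the authors' deposited table, a ratio of 63.2 with a counting interval of 17.5 to 522. It shares exon bases with the pseudogene Ear-ps9 and has close paralogs, and its SE of 2.14 was the largest of the 84 by the authors' deposited table.

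The 5 genes of the stem cell lists had a median log2 fold change of 2.87 with a median SE of 0.91 by the authors' deposited table. Hoxb2, a homeobox transcription factor of the Hoxb cluster active in stem cells, had 2, 6 and 0 young reads and an old mean of 26.1 by the authors' deposited table (log2 fold change 2.92, SE 0.94). Cpne8, a calcium-dependent phospholipid-binding protein, had 2, 1 and 4 young reads and an old mean of 42.1 by the authors' deposited table (log2 fold change 3.76, SE 0.91, adjusted p 0.00356). Kcnip3, a calcium sensor also known as calsenilin, had 10, 6 and 4 young reads and an old mean of 34.6 by the authors' deposited table. Zg16, a secretory granule lectin, and Sbspon, an extracellular protein with somatomedin B and thrombospondin domains, had old means of 30.0 and 20.9 by the authors' deposited table. The last 4 genes stand in the list of genes described as higher in aged stem cells. By the authors' deposited adjusted p, 3 of them were under 0.05, Sbspon being at 0.0514. Of all gene models in the authors' adjustment, 2.56% were higher in old at that limit. All models listed there are under 0.1, so nothing is read from the 3. Of 65 aged stem cell genes, 18 were listed as higher in old, and of 73 stem cell genes 12. Over all gene models in the authors' adjustment that share was 3.67%. All 5 old means were under 50.

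Interferon-induced genes numbered 2 among the 84 by the list, Iigp1 and Phf11d, and genes known from inflammation, stress and the clock are given with them. Iigp1, an immunity-related GTPase, had 8, 6 and 4 young reads and an old mean of 38.3 by the authors' deposited table (log2 fold change 2.30, SE 0.58), and the predicted GTPase gene Gm4951 had 8 young reads and an old mean of 41.8 there (log2 fold change 3.57, SE 0.76). Phf11d, of an interferon-induced gene family, and Ubd, an inflammation-induced ubiquitin-like modifier, had adjusted p of 0.0551 and 0.0756 by the authors' deposited table. Il18, a cytokine of the interleukin 1 family, had the smallest log2 fold change of the 84, 1.49 (SE 0.48) by the authors' deposited table, with 16, 3 and 5 young reads. Ddit4, an mTORC1 inhibitor induced by stress and glucocorticoids, and Per1, a clock gene, had log2 fold changes of 2.57 (SE 0.79) and 2.32 (SE 0.63) by the authors' deposited table. Of the 87 interferon-induced genes in the list, 19 were listed as higher in old, beside 3.67% of all gene models in the authors' adjustment.

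Single genes known from other tissues and cell types completed the named set. Cd4, the helper T cell co-receptor also found on some stem and dendritic cells, had 4, 2 and 0 young reads and an old mean of 21.1 by the authors' deposited table (log2 fold change 3.08, SE 0.95). Klrb1c, which encodes the NK1.1 antigen, had 2 young reads and an old mean of 21.3 by the authors' deposited table, a ratio of 24.4 with a counting interval of 6.76 to 202. In the T, NK and innate lymphoid list, 3 of 61 genes were listed as higher in old. Over all gene models in the authors' adjustment that share was 3.67%, so nothing is read from the list counts given here. Ncam1, a neural adhesion molecule, had 2, 2 and 1 young reads and an old mean of 54.0 by the authors' deposited table (log2 fold change 4.65, SE 0.86), and was 1 of 2 nervous system genes of 72 listed as higher. Pygm, the muscle glycogen phosphorylase, had 2, 6 and 3 young reads and an adjusted p of 0.0502 by the authors' deposited table, and was the 1 muscle gene of 49 listed.

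Darc (now Ackr1), the atypical chemokine receptor of erythroid cells and venules, had the highest old mean of the 84, 272 by the authors' deposited table, against 3, 3 and 4 young reads (log2 fold change 5.92, adjusted p 0.00021). Rcvrn, the photoreceptor calcium sensor recoverin, and Aspa, the aspartoacylase that degrades N-acetylaspartate, had old means of 156 and 86.7 and log2 fold changes of 6.08 (SE 1.45) and 5.01 (SE 0.85) by the authors' deposited table. Ces2e, a carboxylesterase, had 3 young reads and an old mean of 76.1 by the authors' deposited table, a ratio of 58.0 to the pooled young reads with a counting interval of 19.8 to 281. Cbr2, a carbonyl reductase, had 16 young reads and a log2 fold change of 2.90 (SE 0.70) by the authors' deposited table. Zrsr1, an imprinted retrogene that lies inside Commd1, had 3, 7 and 2 young reads and a change of 2.75 on the log2 scale (SE 0.55, adjusted p 0.00016) by the authors' deposited table.

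The other genes with a known role fell among several functions. Transporters were Slc6a15 and Slc7a8 for amino acids, Slc27a6 for fatty acids and Slc37a2 for sugar phosphates, with old means from 21.5 to 59.8 by the authors' deposited table. Regulators of the cytoskeleton were Rltpr (now Carmil2), Fhdc1, Baiap2l1, Rnd2, Epb4.1l3 and Tmsb15l, with old means from 20.3 to 28.1 by the authors' deposited table, and Tmsb15l had the smallest SE of the 84, 0.46. Vdr, the vitamin D receptor, had 20 young reads and an adjusted p of 0.0772 by the authors' deposited table. Evc2, a cilium protein of hedgehog signalling, had 3 young reads and an old mean of 33.9 by the authors' deposited table. Its head-to-head neighbour Evc had a young mean of 0 and an old mean of 19.5 there, just under the limit. Sgpl1, the sphingosine 1-phosphate lyase, and C1ra, a complement protease, had log2 fold changes of 1.61 (SE 0.56) and 2.33 (SE 0.57) by the authors' deposited table. Rnase4, a secreted ribonuclease that shares exon bases with Ang, the membrane proteins Sdc3 and Cdcp1, the endoplasmic reticulum protein Erp27, the G protein subunit Gngt2, and Bex2 and Smim6 had old means from 26.9 to 47.6 by the authors' deposited table.

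Of the 84 genes, 74 are protein coding in RefSeq, 2 are long non-coding RNAs, 1 is a microRNA and 1 a transcribed pseudogene, and 6 symbols, 5 of them cDNA names, did not match a RefSeq gene. The 6 unmatched models, AK088937, AK006921, BC100303, AK083149, AK028111 and AK079675, had old means from 33.2 to 177 by the authors' deposited table. AK088937 was the highest of them, with 10, 3 and 2 young reads, and AK079675 the lowest. The long non-coding RNA I730030J21Rik had 16 young reads and an old mean of 67.8 by the authors' deposited table. In all, 25 genes share exon bases with another gene, and no source used here gives the strand setting of the authors' counting. The clearest case was Mir5107, which shares exon bases with Cd74 on the same strand. Cd74 went from 161 to 7346 and Mir5107 from 2.32 to 95.4 by the authors' deposited table, so reads of Cd74 cannot be told apart from a microRNA precursor. Mab21l2 lies inside Lrba on the other strand, and both were listed as higher, with old means of 27.5 and 17.1 by the authors' deposited table. Cd4 and C1ra also lie beside a gene listed as higher, Lag3 and C1rl.

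The authors' deposited table also holds a mean over 14 samples, which include 7 beyond the young and old libraries if all 4 old libraries are behind the old mean. No source used here identifies those 7 samples, and their mean per gene was derived from the 3 deposited means. It was above the old mean for 64 of the 84 genes, or 76.2%, beside 140 of 154 gene models that were higher in old, outside the group and in the same range of old means (90.9%). Those 154 include symbols that were left out of the group by name. The median ratio of the derived mean to the old mean was 2.33 over the 84 genes. For the 18 myeloid genes it was 1.44, and for the 5 stem cell genes 6.80, from 3.04 for Zg16 to 20.6 for Sbspon. The derived mean itself had a median of 111 over the 84 genes and was under 10 for Ces2e alone. With 2 libraries assumed behind the old mean, the median was 94.3, the lowest value was 16.6, and no gene was under 10.

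A derived mean below the old mean was found for 20 genes. Ces2e had a derived mean of 0.878 in the other 7 samples, so 96.9% of its 14-sample sum lay in the old libraries, if those were 4. With 2 old libraries assumed, its derived mean was 17.6 and the share 48.4%. Darc had a derived mean of 23.1 and 86.1% of its sum in the old libraries, or 78.4 and 43.1% with 2 assumed. Rhbdl2, a rhomboid protease, had a derived mean of 12.1. Cbr2, Ms4a7, Grap, Slc11a1 and Treml4 were also below their old mean, at 0.367, 0.387, 0.443, 0.457 and 0.493 times it. At the other end, AK079675 stood at 1186 in the other samples, 35.7 times its old mean, Sbspon at 20.6 times, Pygm at 17.8 times, Iigp1 at 17.3 times and Rltpr at 16.8 times. Csf3r, the G-CSF receptor, stood at 883 there, 10.3 times its old mean. Which old libraries carried Ces2e or Darc cannot be seen from a group mean.

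**Figure D3:**
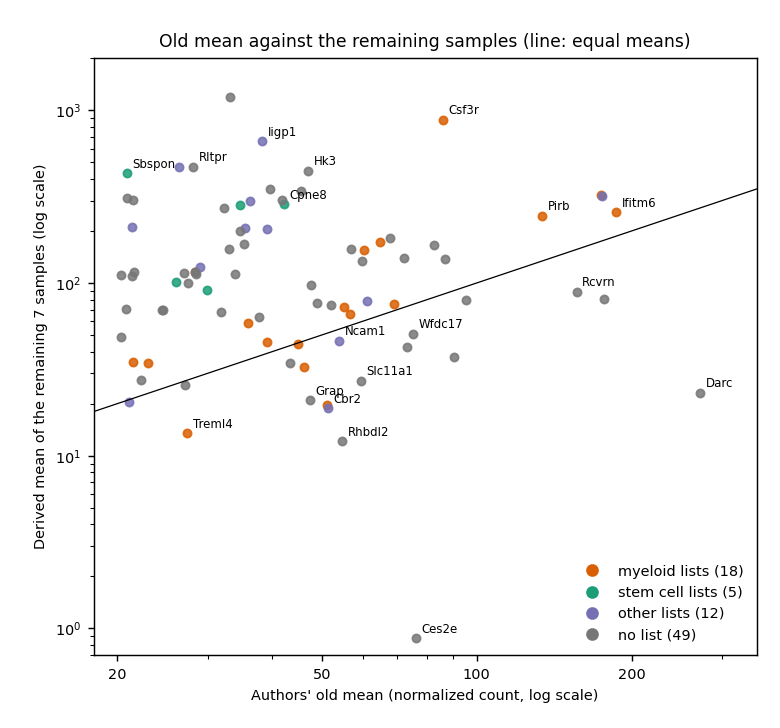
Derived mean of the remaining 7 samples, with 4 old libraries assumed, against the old mean of the authors' deposited table for the 84 genes, both as normalized counts on log axes, with a line of equal means and colours for the list class. Ces2e (0.878) and Darc (23.1) lie farthest below the line, and 64 genes lie above it.

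The authors' SE of the log2 fold change had a median of 0.92 over the 84 genes by the authors' deposited table and exceeded 1 for 32, beside a median of 0.489 and 9 above 1 among the 154 comparison models, whose median young mean was 32.6. Those 154 include symbols left out by name that met both limits, such as Mmp9 (SE 1.68), Fcer1a (SE 1.48) and Ly6c1 (SE 1.36). The counting error of the young reads alone gives an SE of the inverse square root of their number, put on the log2 scale. The deposited SE also holds the spread between libraries and the error of the old group, so it lies above that value. It was 1.83 times that value in the median gene and over 2 times in 29 of 83. Among myeloid genes 9 of 17 were over 2 times, and among the 5 stem cell genes none was, a difference that was not tested. The ratio was over 3 in Ifitm6 (4.05), Chil1 (3.82) and Pirb (3.70), 3 genes with an old mean above 100.

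**Figure D4:**
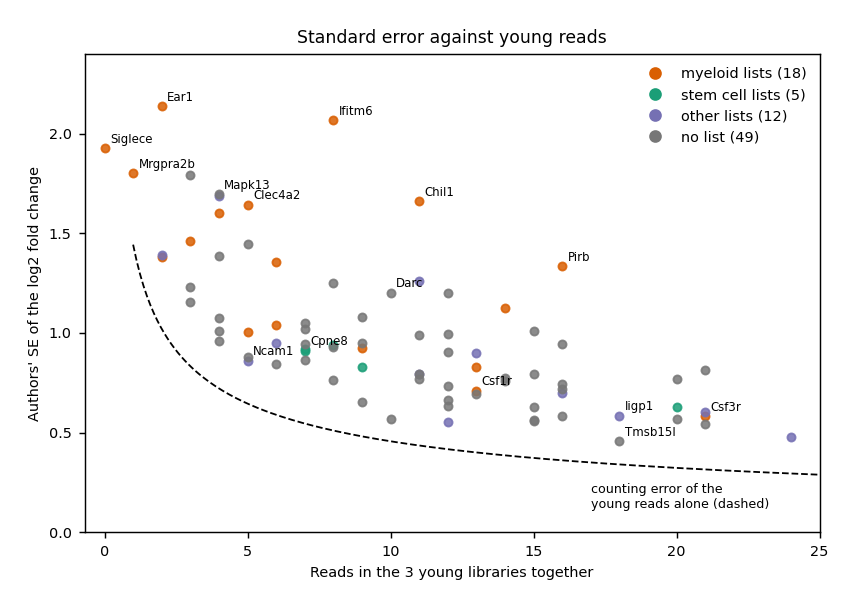
Standard error of the log2 fold change from the authors' deposited table against the reads of each gene in the 3 young libraries together, with colours for the list class and a dashed line for the counting error of the young reads alone. Myeloid genes such as Ifitm6, Chil1 and Pirb lie farthest above the line, and the 5 stem cell genes lie nearer to it.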

How the data were processed

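Sorted megakaryocyte progenitors of 3 young and 4 old libraries were compared through 1 table of the authors' own results. Per the labels' protocols, RNA came from a Trizol extraction and a NEBNext Ultra kit was used for the libraries. The submitters' processing notes name Bowtie2, STAR, DESeq and mm10, and no source used here states their roles, versions or strand setting. The group means are the authors' normalized counts, a signal scaled by library and not by length, per the file headers. The authors deposited the log2 fold change with its SE, a Wald score, p-value and adjusted p-value for each gene model, all under an adjusted p of 0.1. A model's row carries no value per library, so no test was refitted, and the authors' DESeq tests are quoted.

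The members and lists were chosen with earlier results of these data known. Named were all members in a list, the 3 genes nearest each side of a limit and, of members in no list, the 15 with the highest old mean, the 10 with the smallest adjusted p and the 10 with the smallest SE. Other members were named for their role after their values were seen, and 1 member is not reported by name here. Young reads per library were derived from means under 10, with a tolerance of 2e-06, and the method was tested on simulated data. Counting intervals are exact Poisson at 95%, and the level that a count of 0 allows is 3 reads over the summed scaling factors of the young libraries. A ratio given with a counting interval is the old mean over the pooled young reads, which are the young reads of all 3 libraries divided by those summed factors. No source used here gives total counts per library. Of the symbols, 78 matched RefSeq (GRCm38.p6), 7 of them under another name, and GENCODE vM21 gave exon overlaps. Python 3.11.15, pandas 2.3.3, numpy 2.4.6 and scipy 1.17.1 were used.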

Additional observations from a re-analysis of the deposited data

How the results depend on the processing

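The number of genes follows the limits of the choice. With a young limit of 5 there were 48 genes, 36 of them at the authors' adjusted p under 0.05, and with a young limit of 20 there were 130 and 102. An old limit of 50 left 31 genes, 25 of them called, with a median log2 fold change of 4.82, 10 myeloid genes and 0 stem cell genes. Requiring an adjusted p under 0.01 left 30 genes, all 30 called, with 4 myeloid genes and 1 stem cell gene, and calling at that limit gave 30 of the 84. An SE of at most 1 left 52 genes, 40 of them called, with 4 myeloid genes and 5 stem cell genes. A pseudocount of 5 on the deposited means lowered the median log2 fold change to 2.32. Leaving out models that share exon bases with another gene, an alternative chosen after seeing the data, left 3 stem cell genes. In all, 30 alternative values stayed within 1.5 times a count or, for the median log2 fold change, within 0.92, the median SE of single genes. That is a wide limit and not the error of the median: a young limit of 5 gave a median of 4.14 beside 3.33. With 2 libraries assumed behind the old mean, 64 genes also lay above it in the remaining samples.

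No paired analysis was possible because the deposited values are group means without a value per library. For the same reason leaving out single libraries, other normalizations and a filter on low counts were not run. Young reads of 10 or fewer lie behind 43 of the 84 genes, which limits the precision of their fold changes, and old reads per library are not known.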
